A study of Mus musculus with 2148 samples.

Results

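The casein genes encode the phosphoproteins that make up most of the protein of milk. Of the 48437 genes in the count table, the 5 members of the family (Csn1s1, Csn2, Csn1s2a, Csn1s2b and Csn3) were taken by gene symbol, matched from their Ensembl identifiers, with no use of their measured values. They were followed in single thymic epithelial cells (TECs) of C57BL/6 mice measured by RamDA-seq, which covers whole transcripts, unspliced ones included, because reverse transcription is primed along the RNA and not at the poly(A) tail alone. CD45-negative, EpCAM-positive cells had been sorted as Ly51-positive cortical cells (cTEC) or as Ly51-negative medullary cells (mTEC) with high or low surface MHC class II (mTEChi and mTEClo).

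The cells fell into 8 groups, and shares below are of all cells. Adult wild-type (WT) mTEChi (31.3%) came from males of 4 weeks (22.4%), 5 weeks (0.61%, only 12 cells) and 6 weeks (4.14%) and from females of 4 weeks (4.14%). Adult Aire-KO mTEChi (17.1%) and Aire-KO mTEClo (7.78%) came from males of 5 weeks labelled as Aire-deficient, with 1 genotype in all their cells. Adult WT mTEClo (18.0%) came from males of 8 weeks (11.0%), 5 weeks (3.74%) and 4 weeks (3.33%), and adult WT cTEC (3.89%) from males of 6 weeks. Newborn mTEChi (8.64%), mTEClo (6.26%) and cTEC (7.02%) came from WT mice of 1 day whose sex is given as unknown. Mice are not numbered, so cells of a group that share age and sex were taken as 1 mouse pool, and pools served as replicates. There were 4 pools of adult WT mTEChi, 3 of adult WT mTEClo and 1 of every other group. The labels also number experimental batches, each no larger than the multi-well plates into which the cells were sorted. These are called plates here and are technical units, 9 of them with adult WT mTEChi and 4 with Aire-KO mTEChi. Plate and genotype cannot be told apart, since no plate held cells of both genotypes.

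Depth ran from 203010 to 1823784 reads per cell, with a median of 692880. The targeted gene was low where the labels say KO: the Aire level was 1109.7, 1844.6, 1125.1 and 1789.7 counts per 1000000 reads (CPM) in the 4 adult WT mTEChi pools and 26.1 CPM in the Aire-KO mTEChi pool. Summed over 6 markers of mTEChi fixed for this work, levels were 5659 to 7750 CPM in the adult WT mTEChi pools and 1288.3 to 2894 CPM in the adult WT mTEClo pools. Markers of other cells were also read in the adult WT mTEChi pools. The sums were 50.2 to 168.95 CPM over 6 thymocyte markers, 40.5 to 224.3 CPM over 4 fibroblast markers and 5.38 to 27.4 CPM over 3 endothelial markers. They were 386.95 to 467.3 CPM over 6 cTEC markers and 356.3 to 496.3 CPM over 5 markers of immature mTEC. Their part in the casein values was not tested.

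In milk, the calcium-sensitive caseins (alpha-S1-casein from Csn1s1, beta-casein from Csn2 and the alpha-S2-type caseins from Csn1s2a and Csn1s2b) bind calcium phosphate, and kappa-casein from Csn3 sits on the surface of the casein micelle and keeps it in solution. The genes lie side by side in mammals and are switched on together in the mammary gland by prolactin acting through the transcription factor STAT5, with help from ELF5 and the glucocorticoid receptor. In the thymus such genes are tissue-restricted antigens: mTEC transcribe genes of many organs so that developing T cells meet them, and Aire is the nuclear regulator needed for many of these genes in mTEChi.

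The 5 genes span 266.5 kb of mouse chromosome 5 on GRCm38. Csn1s1 (ENSMUSG00000070702) lies on the plus strand at chr5:87666208-87682578, and Csn2 (ENSMUSG00000063157) lies 10.0 kb from it on the minus strand at chr5:87692624-87699630. Csn1s2a (ENSMUSG00000061937) follows on the plus strand at chr5:87774567-87788797 after 74.9 kb. Csn1s2b (ENSMUSG00000061388) is 19.3 kb further on, also on the plus strand, at chr5:87808082-87824426, and Csn3 (ENSMUSG00000001622) closes the row on the plus strand at chr5:87925579-87932665 after another 101.15 kb. Reads were counted over all annotated exons without regard to strand. Csn3 lies within an annotated antisense gene, 1700066N21Rik, so reads of that pair cannot be told apart (the level of 1700066N21Rik was 0.155 CPM in adult WT mTEChi and 0 in Aire-KO mTEChi), and 80 of the 4166 words of 50 bases in Csn3 transcripts also occur in other genes. Csn2 shared 5 of 7401 such words with other genes, and the other 3 caseins shared none.

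The sequences just before the casein start sites are shown because the genes differ below in level, in the share of cells and with genotype. RefSeq promoter sequences (GRCm38.p6) matched 3 of the 5 genes, Csn1s1, Csn2 and Csn1s2a. Over the 250 bases before the RefSeq start, the STAT5-type motif TTCNNNGAA, searched on both strands, is printed in capitals. For Csn2, only 10 bases each side of the match are printed, since most of the 250 bases lie within the first exon of a longer Ensembl transcript.
Csn1s1 (chr5:87665958-87666207, plus strand): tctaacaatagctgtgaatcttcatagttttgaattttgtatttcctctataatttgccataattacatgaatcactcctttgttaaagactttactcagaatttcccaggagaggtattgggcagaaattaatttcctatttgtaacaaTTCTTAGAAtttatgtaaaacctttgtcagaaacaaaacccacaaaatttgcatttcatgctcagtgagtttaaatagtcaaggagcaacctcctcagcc
Csn2 (chr5:87699500-87699528, minus strand): tcacgtagacTTCTTGGAAttgaagggac
Csn1s2a (chr5:87774200-87774449, plus strand): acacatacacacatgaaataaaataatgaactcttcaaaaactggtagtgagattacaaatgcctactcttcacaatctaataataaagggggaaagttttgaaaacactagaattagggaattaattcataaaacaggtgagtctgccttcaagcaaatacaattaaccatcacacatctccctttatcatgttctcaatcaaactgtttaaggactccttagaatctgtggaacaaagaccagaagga
The motif stood 100 to 92 bases before the start of Csn1s1 and 93 to 85 bases before that of Csn2, and these letters are not in the window of Csn1s2a. That window ends at chr5:87774449, ahead of the Ensembl start of Csn1s2a at chr5:87774567. The bases between were searched for neither motif. Of 32851 mouse promoter windows of the same length, 7.02% hold the motif. The TATA box letters TATAAA, also searched on both strands, are in 12.4% of the windows and in none of the 3 casein windows. The GC content was 32.8% for Csn1s1, 36.8% for Csn2 and 34% for Csn1s2a, against a median of 52.4% over all windows.

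In adult WT mTEChi, Csn2 was the one casein gene with many reads in nearly every cell. Its level was 637.8, 843.3, 676.3 and 759.4 CPM in the 4 pools, a mean of 729.2 ± 91.4 CPM (SD, n = 4), and it ranked between 54 and 85 among all genes by CPM in those pools. The other 4 caseins were at least an order of magnitude lower in mean level and differed far more between pools. Csn1s2a stood at 20.8, 0.50, 32.3 and 21.8 CPM (18.8 ± 13.3 CPM, SD, n = 4), and Csn1s1 at 15.2, 0, 2.50 and 16.2 CPM (8.50 ± 8.44 CPM). The lowest pool for both was that of 5 weeks, which had only 12 cells. Csn3 stood at 6.10, 0, 1.06 and 6.27 CPM (3.36 ± 3.29 CPM) and Csn1s2b at 2.30, 0.50, 1.21 and 0.41 CPM (1.10 ± 0.87 CPM). Per kilobase of annotated exon, so that genes can be compared, the mean level was 105.3 ± 13.2 CPM for Csn2, 5.38 for Csn1s2a, 1.36 for Csn1s1, 0.81 for Csn3 and 0.26 for Csn1s2b. The order was the same per kilobase of the longest annotated mRNA (548.7, 20.5, 6.02, 2.10 and 0.66 CPM). The step from Csn2 to Csn1s2a exceeds the spread between pools, whereas the pools of the other 4 genes overlap one another.

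Csn2 stood at 673.7 CPM in Aire-KO mTEChi and 715.1 CPM in newborn mTEChi, both within the range of the adult WT pools. It stood at 18.5, 70.0 and 18.0 CPM in the adult WT mTEClo pools (35.5 ± 29.9 CPM, SD, n = 3), 12.4 CPM in Aire-KO mTEClo, 35.5 CPM in newborn mTEClo, 80.9 CPM in adult cTEC and 31.9 CPM in newborn cTEC. No pool outside mTEChi came within the range of the mTEChi pools. Csn1s2a had no read in adult cTEC and in 1 mTEClo pool, where 3 counts would be 0.046 and 0.064 CPM. Csn3 had no read in newborn mTEClo or newborn cTEC, 3 counts being 0.037 and 0.030 CPM there. In adult WT mTEClo, 88.5% of the Csn3 reads came from 1 cell, and in newborn mTEClo 96.3% of the Csn1s2a reads did.

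**Figure D1:**
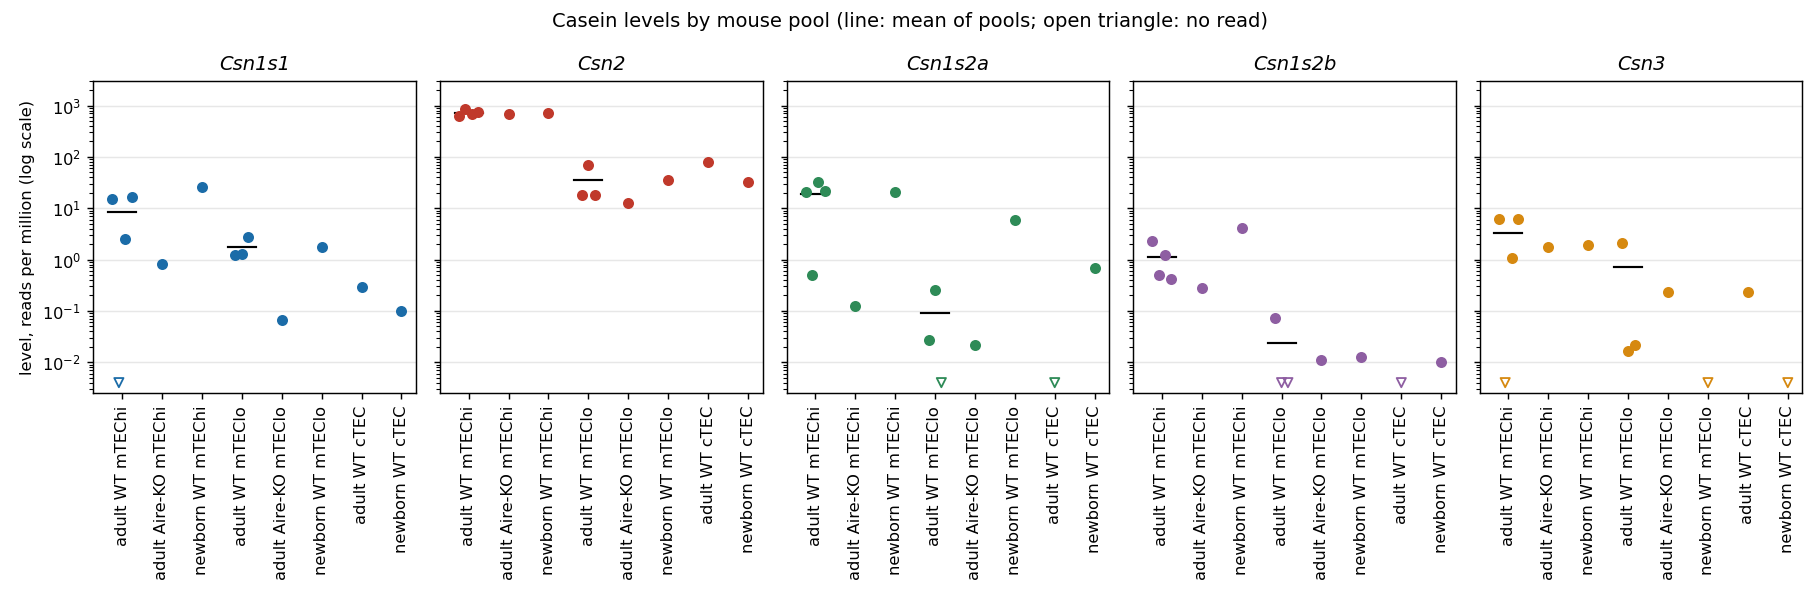
Level of each casein gene (CPM, log axis) in each mouse pool of the 8 groups, where a point is a pool, a line is the mean of groups with several pools, and an open triangle marks a pool with no read. Csn2 lies between 637.8 and 843.3 CPM in every adult WT, Aire-KO and newborn mTEChi pool and at 80.9 CPM or less in all other pools, while Csn1s2a falls from 20.8, 32.3 and 21.8 CPM in 3 adult WT mTEChi pools to 0.126 CPM in Aire-KO mTEChi.

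Detection in single cells separated Csn2 from its neighbours in the same way. Taking 5 reads as a firm detection, 98.1% of the 620 adult WT mTEChi cells carried Csn2, 59 carried Csn1s2a (9.52%, exact 95% binomial interval 7.32 to 12.1%), 53 carried Csn1s1 (8.55%), 53 carried Csn3 (8.55%) and 29 carried Csn1s2b (4.68%). All binomial and Poisson intervals and limits here cover counting error only. Cells that carried Csn2 had a median level of 633.3 CPM, and the 10 cells with most reads held 5.3% of the group's Csn2 reads. By the same count, 10 cells held 51.3% of the Csn1s2a reads, 62.3% of Csn3, 64.99% of Csn1s1 and 72.1% of Csn1s2b. Csn2 was thus spread over the population, and the other caseins came from a small number of high cells, up to 1230.8 CPM in 1 cell for Csn1s1 and 1264.6 CPM for Csn1s2a.

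Low read numbers need care. At a threshold of 1 read, Csn2 was found in 99.2% of adult WT mTEChi cells, but also in 91.7%, 64.9% and 13.6% of the cells of the 3 adult WT mTEClo pools, 37.7% of adult cTEC and 90.6% of newborn cTEC. Aire, at 1 read, was found in 92.2%, 77.03% and 54.5% of the cells of the same mTEClo pools and in 95.7% of newborn cTEC. At 5 or more reads, Csn2 was still found in 41.5% of adult WT mTEClo cells (58.1%, 21.6% and 9.09% in the pools), 5.84% of Aire-KO mTEClo, 30.6% of newborn mTEClo, 11.7% of adult cTEC and 40.3% of newborn cTEC. Of the Csn2 reads, 90% came from 370 of the 620 adult WT mTEChi cells, and from 78 cells in adult WT mTEClo, 2 in Aire-KO mTEClo, 15 in newborn mTEClo, 5 in adult cTEC and 29 in newborn cTEC. The median Csn2 level per cell was 622.04 CPM in adult WT mTEChi, 4.63 CPM in adult WT mTEClo and 5.36 CPM in newborn cTEC, at median depths of 772240, 592899 and 695844 reads. Newborn cTEC shared plates with newborn mTEChi, and adult cTEC did not share one with any mTEChi cell. The source of these low reads was not tested, and shares at 1 read outside mTEChi are not read as expression.

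Between adult WT mTEChi and mTEClo, 2 of the 5 caseins were called, both higher in mTEChi, and with pool age and sex blocked Csn2 alone was. In edgeR's quasi-likelihood test over the 11 mTEC pools, 7.54% of the 39971 genes tested were called higher in adult WT mTEChi (a call needs a fold of 2 or more beside an adjusted p below 0.05). That share was 3.71%, 4.61% and 3.78% without adult WT mTEChi pools 1, 3 and 4 and 2.79% and 3.45% without mTEClo pools 2 and 3. The log2 fold change was 4.199 ± 0.52 (SE) for Csn2, with adjusted p = 0.00401, and 7.53 ± 1.70 for Csn1s2a, with adjusted p = 0.0274. Csn1s2b had 4.98 ± 1.41 with edgeR adjusted p = 0.0518, just short of the threshold, Csn1s1 had 2.11 ± 1.32 with adjusted p = 0.280 and Csn3 had 1.93 ± 1.83 with adjusted p = 0.477. The Csn1s2a call was lost when any one of adult WT mTEChi pools 1, 3 and 4 or mTEClo pools 1 and 3 was left out, while the Csn2 call held without any one pool. With age and sex of the pools in the fit, which leaves 1 residual degree of freedom, the log2 fold change was 4.26 ± 0.43 for Csn2 (edgeR adjusted p = 0.00164), 5.21 ± 2.67 for Csn1s2a (adjusted p = 0.357) and -0.31 ± 2.11 for Csn1s1. Only males of 4 weeks and of 5 weeks had pools of both mTEChi and mTEClo, so the contrast in that fit rests on their pools. These include the mTEChi pool of 12 cells. The mean of the pools' shares of cells with at least 1 read of any casein other than Csn2 was 44.03 ± 3.95% in mTEChi (SD, n = 4) and 11.0 ± 5.04% in mTEClo (n = 3). The 4 mTEChi pools all lay above the 3 mTEClo pools, and the exact permutation test (2-sided) gave p = 0.0571, the smallest that 4 against 3 pools allow. At 5 or more reads the shares were 13.95 ± 10.51% and 2.82 ± 1.35%, the mTEChi pool of 12 cells had none, so that the pools overlapped, and the exact permutation test gave p = 0.229. With Csn2 included, the shares were 97.7 ± 4.04% and 59.3 ± 38.2%, with an exact permutation p = 0.114.

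The central question of the Aire-KO groups is which genes of mTEChi need Aire, and the caseins gave different values gene by gene. The Csn2 level in the Aire-KO pool, 673.7 CPM, lay within the WT range, and its log2 fold change was 0.01 ± 0.64 (SE, 95% interval -1.45 to 1.46) with an edgeR adjusted p of 1. By plate, Csn2 ran from 513.1 to 818.5 CPM over the 9 adult WT plates and from 567.5 to 795.8 CPM over the 4 Aire-KO plates, so that all KO plates lay inside the WT range. The interval still spans a change of more than 2-fold in either direction, so a moderate effect of Aire on Csn2 was not detectable with 1 KO pool. The share of cells with 5 or more Csn2 reads was 98.1% (96.64 to 98.996%) in WT and 93.2% (90.0 to 95.6%) in Aire-KO.

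Csn1s2a was almost without reads in Aire-KO mTEChi. A single cell held all 37 of the group's reads, 0.30% of cells (exact binomial interval 0.01 to 1.64%), whereas 27.6% of WT cells had at least 1 read. The KO level was 0.126 CPM. By plate the 4 KO values were 0, 0, 0.404 and 0 CPM, while the 9 WT plates ran from 0.394 to 79.9 CPM with a median of 16.7 CPM, so the highest KO plate only just overlapped the lowest WT plate. That lowest WT plate had 17 cells, among them the 12 cells of the pool that matches the KO mice in age and sex. In that matching pool 4 cells had 1 Csn1s2a read each, a level of 0.50 CPM. The log2 fold change over pools was -7.09 ± 2.77 (SE, 95% interval -13.4 to -0.76), with an unadjusted p of 0.0323 and an edgeR adjusted p = 0.925.

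No gene could be called in this comparison over pools, 0% of the 39971 genes tested, and Aire itself had an edgeR adjusted p = 0.239 at a log2 fold change of -5.69 ± 0.57. By edgeR's unadjusted p, 1.18% of genes were higher and 3.19% lower at the 0.05 level. With plates as the units, which may share mice within a pool and so mix technical spread with that between pools, 4.44% of 37011 genes were called lower in Aire-KO, and Csn1s2a was among them with a log2 fold change of -7.45 ± 2.08 and an edgeR adjusted p = 0.0284. DESeq2 on the pools called 1.79% of genes lower, Csn1s2a among them with adjusted p = 0.00965. Neither fit called another casein. The sum of the 6 mTEChi markers was 4734 CPM in the Aire-KO pool, under the WT range given above. Aire, the targeted gene, is part of that sum, at 26.1 CPM in the KO pool and 1109.7 to 1844.6 CPM in the WT pools. The sum alone therefore does not show that the other markers were lower, and their part in these differences was not tested.

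The other 3 caseins lay between these extremes. Csn1s1 stood at 0.823 CPM in the Aire-KO pool, above the WT pool with no read and below the other 3 WT pools, and its KO plates (0.48 to 1.28 CPM) sat at the low end of the WT plates (0 to 47.5 CPM, median 6.46 CPM). Its log2 fold change was -3.26 ± 2.28 with an edgeR adjusted p = 0.934 over pools, and -3.73 ± 1.60 with adjusted p = 0.138 over plates. Csn1s2b stood at 0.283 CPM, below all 4 WT pools, with a log2 fold change of -1.85 ± 1.83. Csn3 stood at 1.73 CPM, inside the WT range, with a log2 fold change of -0.85 ± 2.67, and 7.40% of KO cells carried 5 or more Csn3 reads against 8.55% of WT cells. The share of cells with Csn1s1 was 3.85% (2.06 to 6.49%) in KO and 8.55% (6.47 to 11.0%) in WT, and that with Csn1s2b was 1.78% (0.65 to 3.82%) and 4.68% (3.15 to 6.65%). These intervals treat cells as independent and say nothing of the spread between mice.

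Besides their number, the amount per carrying cell differed. Among cells with 5 or more reads, the median count of Csn1s1 was 42 reads in WT and 16 in Aire-KO, with a highest cell of 1230.8 and 50.7 CPM. For Csn1s2b the medians were 14 and 9.5 reads, and for Csn3 18 and 14 reads, while for Csn2 the median levels were 633.3 and 692.6 CPM. High-output cells of Csn1s1 were therefore seen in WT and not among the 13 carrying cells of the KO group. No test was made over cells, which are not replicates.

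**Figure D2:**
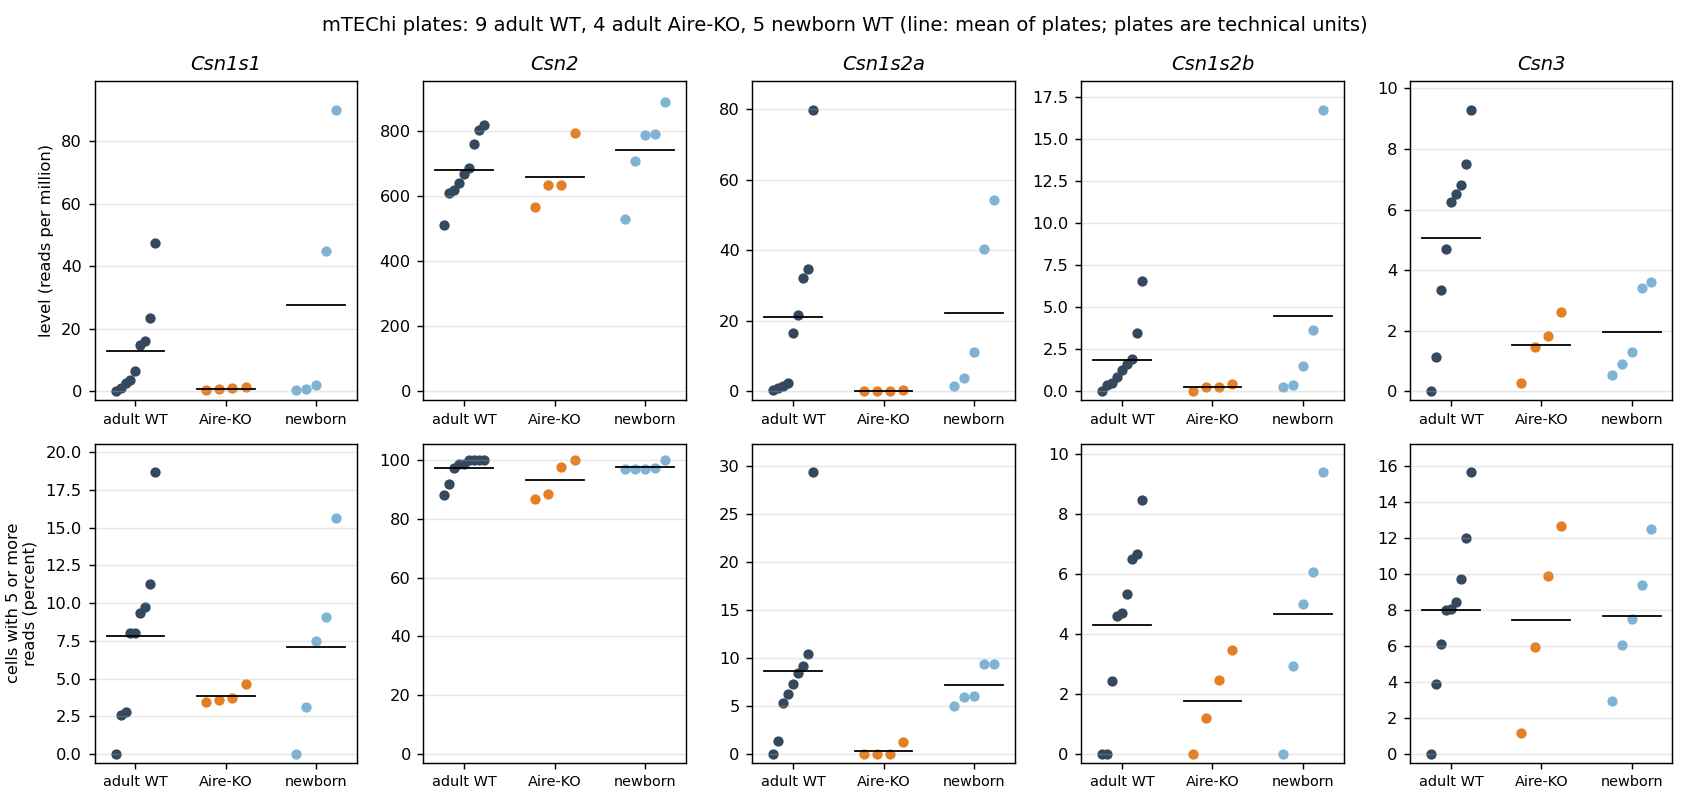
Level (CPM, top) and share of cells with 5 or more reads (percent, bottom) of each casein in mTEChi, where a point is a plate, ordered by value, and a line is the mean of the plates. The Aire-KO plates lie inside the adult WT range for Csn2 (567.5 to 795.8 against 513.1 to 818.5 CPM) and at 0 to 0.404 CPM for Csn1s2a, where the adult WT plates run to 79.9 CPM.

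In mTEClo, levels were low in both genotypes. Csn2 stood at 12.4 CPM in Aire-KO mTEClo, under the 3 WT pools, and Csn1s2a and Csn1s2b had 2 reads and 1 read in the whole KO group. No casein and 0% of the genes tested were called by edgeR over pools (2.14% were higher and 1.41% lower by the unadjusted p). The difference between the effect of Aire in mTEChi and that in mTEClo, tested as an interaction, was not called for any casein or for any other gene (0%, with 1.23% higher and 2.212% lower by the unadjusted p). Its log2 value was -5.14 ± 3.39 for Csn1s2a and 1.47 ± 0.93 for Csn2.

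Newborn mTEChi carried reads of all 5 caseins. Csn2 stood at 715.1 CPM, with 5 or more reads in 97.7% of cells, Csn1s1 at 26.3 CPM, Csn1s2a at 20.5 CPM, Csn1s2b at 4.18 CPM and Csn3 at 1.9004 CPM, and the shares of cells with 5 or more reads of the last 4 were 7.02%, 7.02%, 4.68% and 7.60%. The newborn Csn2, Csn1s2a and Csn3 levels lay within the range of the adult WT pools, and the Csn1s1 and Csn1s2b levels above it. For Csn1s2b, 69.4% of the newborn reads came from 1 cell, and for Csn1s1 the 5 newborn plates ranged from 0.56 to 90.1 CPM. No casein was called between newborn and adult mTEChi by edgeR over pools, nor was any gene (0%, with 1.51% higher and 0.503% lower by the unadjusted p). The log2 fold change was 0.0048 for Csn2 with a 95% interval of -1.45 to 1.46, 0.15 (-3.77 to 4.07) for Csn1s2a, 1.65 (-2.08 to 5.37) for Csn1s1, 1.93 (-1.33 to 5.204) for Csn1s2b and -0.81 (-6.90 to 5.28) for Csn3, so these data do not show that the ages are alike. In mTEClo, likewise, no gene was called between the ages over pools (0%, with 5.62% higher and 4.32% lower by edgeR's unadjusted p). That count of 0 rested on 1 pool, since 0.635% of genes were called higher and 0.702% lower without adult WT mTEClo pool 1, no casein among them. Over plates 16.0% of genes were called in either direction, with Csn1s2a higher in newborn (edgeR adjusted p = 0.0223) and Csn3 lower (adjusted p = 0.00804). The newborn Csn1s2a level of 5.81 CPM was 0.214 CPM without its highest cell, and newborn mTEClo had no Csn3 read.

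Cells that carried 1 casein carried another more often than plates alone would give, in adult WT mTEChi. Of the 620 cells, 78.5% had none of the 4 caseins other than Csn2 at 5 or more reads, while 92 cells had 1, 25 had 2, 12 had 3 and 4 cells had all 4. In Aire-KO mTEChi 86.98% had none, 43 cells had 1, 1 cell had 2 and none had more. In newborn mTEChi 78.4% had none, 30 cells had 1, 6 had 2 and 1 cell had 3. Csn1s1 and Csn1s2a were found together in 22 cells, where 6.94 would be expected if each were spread at random over the cells of a plate. Put another way, 41.5% of cells with Csn1s1 also carried Csn1s2a, against 6.53% of cells without it. Csn1s2a and Csn1s2b were together in 14 cells (3.41 expected), Csn1s2a and Csn3 in 19 (4.79 expected), and Csn1s1 and Csn1s2b in 12 (2.86 expected).

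Correlations over the 620 cells are given as a description with no test, since the cells share plates and pools. On log2(CPM + 1), Pearson's r was 0.40 for Csn1s1 with Csn1s2a, 0.38 for Csn1s2a with Csn1s2b, 0.33 for Csn1s2a with Csn3 and 0.28 for Csn1s1 with Csn1s2b. The remaining 6 pairs had r between 0.15 and 0.23, among them Csn1s1 with Csn2, the closest pair on the chromosome, at 0.19. For comparison, 107270 pairs of detected protein-coding genes within 300 kb of each other were taken, without overlapping genes and casein pairs. Their median r was 0.053 and the 95th percentile 0.258, and 1.63% had an r at or above that of Csn1s1 with Csn1s2a. These pairs were not matched to the caseins in the share of cells that carried the genes. For that pair r was 0.42, 0.34 and 0.44 in the 3 pools with over 12 cells, and 0.37 after each plate was centred. The order of the other pairs rested on the pools. In pool 4 the 3 highest pairs without Csn2 all included Csn1s2b (0.64 with Csn1s2a, 0.59 with Csn1s1 and 0.52 with Csn3). Without pool 1, the largest, r was 0.59 for Csn1s2a with Csn1s2b, 0.37 for Csn1s2b with Csn3 (0.18 over all cells) and 0.23 for Csn1s1 with Csn3 (0.15 over all cells). In newborn mTEChi r was 0.31 for Csn1s2a with Csn3, 0.20 for Csn1s1 with Csn3 and 0.19 for Csn1s1 with Csn1s2a. Cells with 5 or more reads of both genes numbered 3, 3 and 2 (0.99, 1.00 and 0.89 expected). For Csn1s2a with Csn1s2b r was 0.24, with 1 such cell (0.56 expected). With cells thinned to a common depth, r was 0.07 for that pair and 0.27, 0.23 and 0.21 for those before it. Newborn r was -0.04 for Csn1s1 with Csn1s2b and -0.02 for Csn1s2b with Csn3, with no cell carrying both genes. In Aire-KO mTEChi no pair with Csn1s2a could be computed, Csn1s1 with Csn1s2b had r -0.05 and Csn2 with Csn3 had 0.22, as in WT. In these sparse counts the weaker correlations are no finding.

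**Figure D3:**
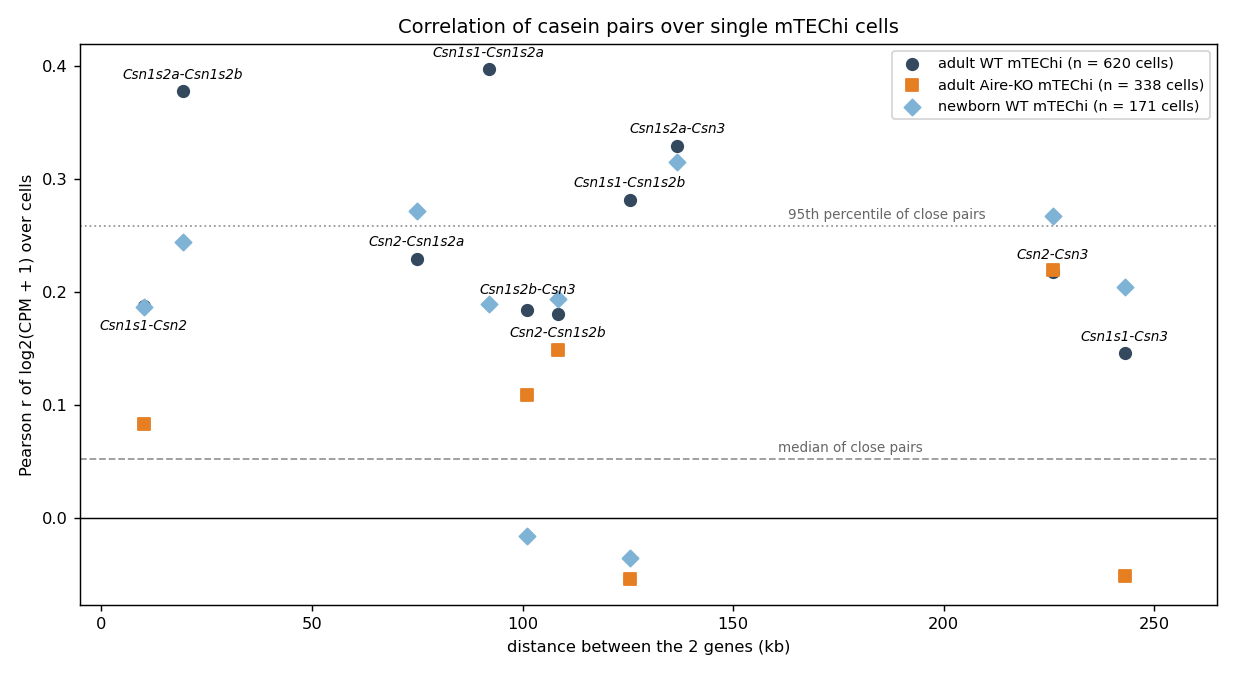
Pearson's r of log2(CPM + 1) over single mTEChi cells for each pair of caseins against the distance between the genes (kb), in adult WT (circles), Aire-KO (squares) and newborn WT (diamonds) cells. The dashed and dotted lines are the median (0.053) and 95th percentile (0.258) of 107270 pairs of protein-coding genes within 300 kb in adult WT cells, casein pairs left out. Over all adult WT cells the 3 highest pairs (0.40, 0.38 and 0.33) include Csn1s2a, an order that differs between pools, and the closest pair has 0.19.

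Genes most like each casein were ranked by the same r over 29545 genes in adult WT mTEChi cells, and none passed 0.6. Csn2, the gene of almost every cell, was most like genes elsewhere in the genome: Col14a1, a fibril-associated collagen (r = 0.52 in adult WT, 0.58 in Aire-KO and 0.30 in newborn mTEChi), the lincRNA Gm29461 (0.51, 0.64 and 0.36) and Il2rg, the common gamma chain of cytokine receptors (0.50, 0.61 and 0.54). Of the other caseins, Csn1s1, Csn1s2a and Csn3 were most like genes of their own region. After Csn1s2a, Csn1s1 was most like Amtn, an enamel protein gene (0.32), and Sult1e1, the estrogen sulfotransferase (0.31), and the 3 genes most like Csn1s2a were Csn1s1, Csn1s2b and Csn3. Csn3 was most like the neighbouring lincRNA BC037156 (0.33), Csn1s2a (0.33) and Amtn (0.28). Csn1s2b was most like Csn1s2a (0.38). Next came 2 genes elsewhere in the genome, the olfactory receptor gene Olfr985 on chromosome 9 (0.33) and the lincRNA Gm33016 on chromosome 12 (0.32). These had 5 or more reads in only 5 and 9 cells.

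The neighbourhood was then read gene by gene. There were 39 other genes annotated within 500 kb of the cluster. Of these, 7 had no cell with 5 or more reads in adult WT or Aire-KO mTEChi. A further 31 had a lower share of such cells in Aire-KO and 1 a higher share. Several of the 31 had only 1 such cell in adult WT mTEChi, and no such count was made over all genes without a filter. Nothing is read from the count of 31. The 12 with 5 or more reads in at least 5 adult WT mTEChi cells were kept for description. They were chosen on the WT cells, so that nothing is read from how many of them were lower in Aire-KO, and of all 29546 genes kept in that way 52.97% had a lower share in Aire-KO. On the Csn1s1 side lie 3 sulfotransferase genes, which act on small molecules such as hormones. Sult1d1 was carried by 14.8% of adult WT, 8.9% of Aire-KO and 12.9% of newborn mTEChi cells, Sult1b1 by 6.3%, 3.3% and 6.4%, and Sult1e1 by 4.0%, 2.1% and 5.3%. Odam lies inside the cluster and Amtn beyond Csn3, both genes of secreted proteins of the tooth germ that belong with the caseins to the secretory calcium-binding phosphoproteins. Amtn was carried by 8.4%, 0% and 9.9% of cells of the 3 groups and Odam by 4.2%, 0% and 2.3%, and a count of 0 KO cells allows a share of up to 0.888%. BC037156, between Csn1s2b and Csn3, was carried by 4.0%, 2.1% and 7.6%. None of the 12 was called over pools. Over plates, 23 of the 39 neighbours could be tested and 6 were called lower in Aire-KO, beside 4.44% of all genes, among them Amtn (edgeR adjusted p = 0.0058) and Odam (adjusted p = 0.027). The 23 had passed a count filter on the same plates. Genes such as Amtn and Odam, with no KO cell, could pass it only through other plates, so nothing is read from the count of 6. The log2 fold change of Sult1d1 over plates was -0.79 (edgeR adjusted p = 0.566).

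**Figure D4:**
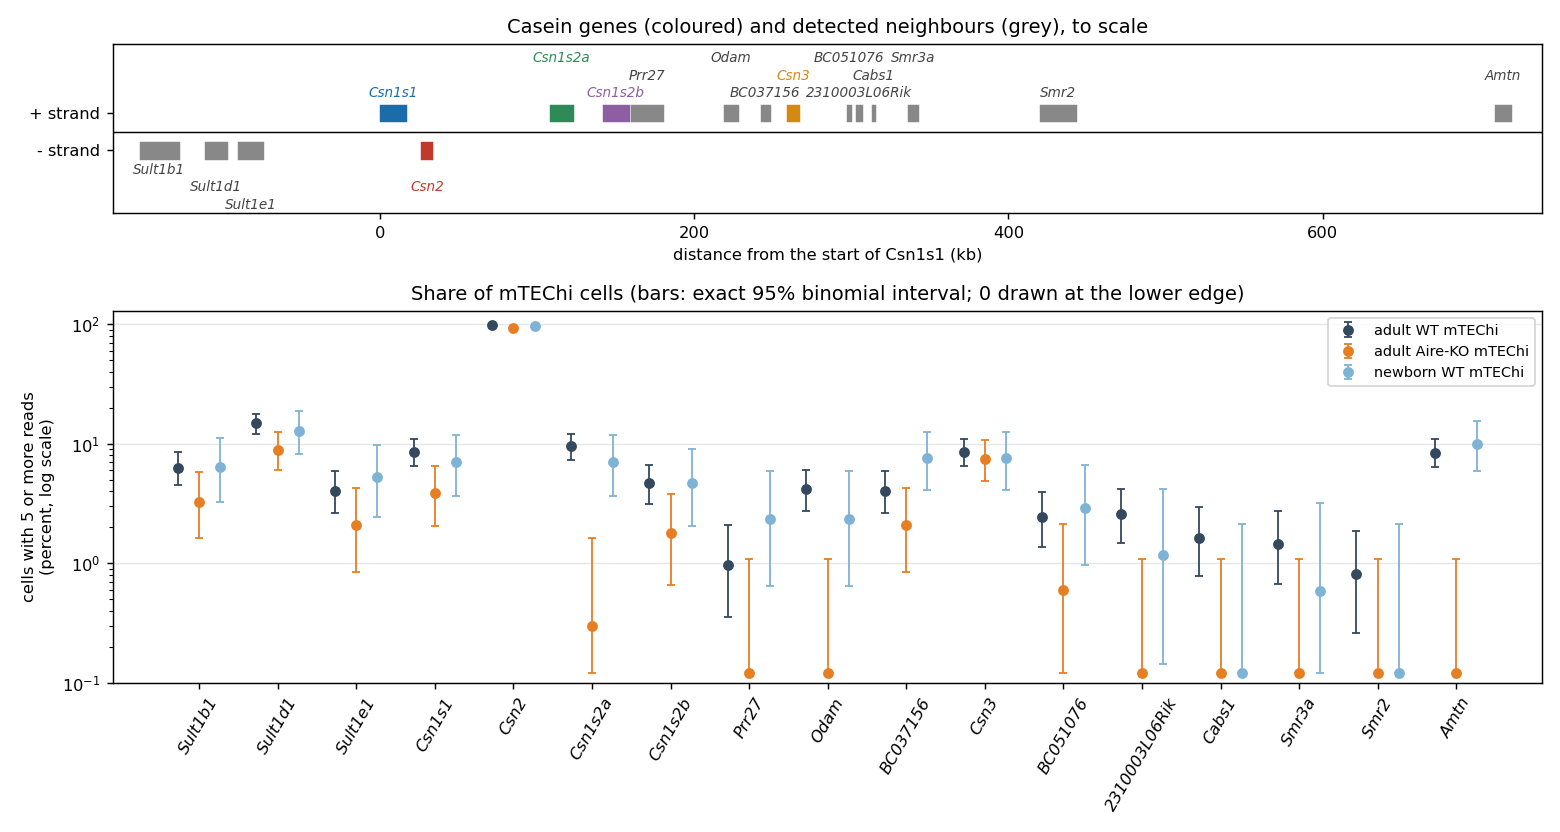
Top, the caseins (coloured) and the 12 detected neighbours (grey) to scale on each strand, by distance from the start of Csn1s1 (kb). Bottom, the share of mTEChi cells with 5 or more reads (percent, log axis, 0 drawn at the lower edge, bars are exact 95% binomial intervals) in adult WT, Aire-KO and newborn WT mTEChi, where Csn1s2a reads 9.52%, 0.30% and 7.02%, while Csn3 reads 8.55%, 7.40% and 7.60%.

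Dependence on Aire was also examined inside WT cells, by the Aire level of each cell within its own plate. In adult WT mTEChi the Csn2 level was 394.7 CPM in the lowest of 4 Aire bins of near-equal size, then 644.02, 743.7 and 864.3 CPM in the bins with more. With cells split at the median Aire level of their plate, Csn2 stood at 762.95 CPM above and 505.2 CPM below it in pool 1, 1388.5 and 318.3 CPM in pool 2, 876.8 and 492.4 CPM in pool 3 and 885.3 and 606.4 CPM in pool 4. It was higher above the median in 4 of 4 pools. In newborn cells the bins stood at 590.8, 722.7, 720.9 and 830.5 CPM, but the 5 plates differed. Csn2 stood lower above the median Aire level than below it in plate 16 (427.7 and 635.1 CPM) and plate 18 (821.8 and 953.6 CPM), and higher in plate 17 (1059.1 and 452.2 CPM), plate 19 (953.5 and 626.1 CPM) and plate 20 (806.8 and 778.05 CPM). Over cells, r of Csn2 with Aire was 0.47 in adult WT and 0.32 in newborn mTEChi. It was 0.50 in Aire-KO mTEChi, where Aire reads remained in 64.2% of cells, so the correlation was present in both genotypes. Both levels share a cell's total, and no test was made over cells.

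For each of the other caseins the highest Aire bin lay above the lowest, but the shares did not rise at every step. The share of adult WT cells with 5 or more reads was 6.3, 10.9, 11.0 and 9.9% from the lowest to the highest Aire bin for Csn1s2a, 6.3, 9.6, 9.0 and 9.3% for Csn1s1, 5.7, 4.5, 11.0 and 13.2% for Csn3 and 1.9, 6.4, 3.9 and 6.6% for Csn1s2b. The lowest bin was the lowest for 3 of these 4 genes, Csn3 being the exception. Over cells, r of these 4 genes with Aire ran from 0.076 to 0.106 in adult WT mTEChi and from -0.093 to 0.137 in newborn mTEChi. Between cells above and below the median Aire level, the share with any casein read differed by 5.11 percentage points (mean of 4 pools). It was higher above the median in 2 of 4 pools and equal in the others. The exact sign-flip permutation test, 2-sided, gave p = 0.5. With 2 pools without a difference no smaller p was possible, where 4 pools that all differ would allow 0.125. Nearly every cell carried Csn2, so the test cannot decide on a dependence on Aire. The difference of 5.11 points rests on the pool of 12 cells and was 0.15 points without it. Without Csn2 the difference was -0.29 points, with 3 of 4 pools higher and the pool of 12 cells lower, and it was 8.50 points without that pool.

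**Figure D5:**
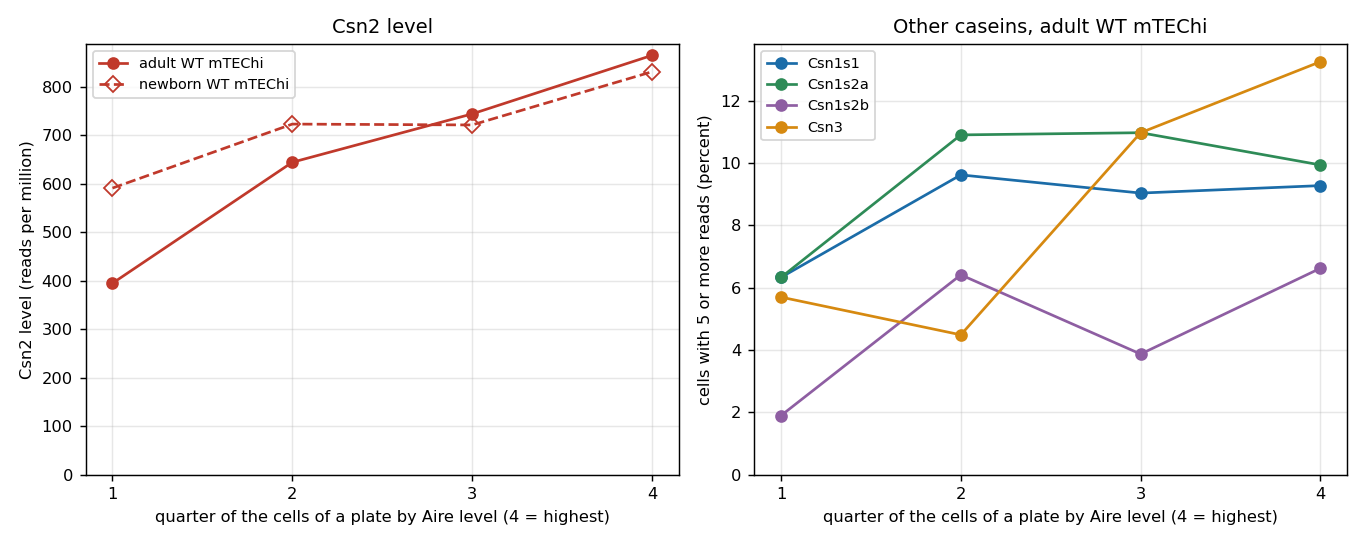
Left, the Csn2 level (CPM) in adult WT (filled circles) and newborn WT (open diamonds) mTEChi cells by bin of Aire level within a plate (4 bins of near-equal size), which goes from 394.7 to 864.3 CPM in adult cells. Right, the share of adult WT mTEChi cells with 5 or more reads (percent) of the other 4 caseins by the same bins, where Csn1s2a stays between 6.3 and 11.0%.

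Genes that act on caseins in the mammary gland, or are made with them, were read from lists of 16 regulators and 19 milk or mammary secretion genes. The regulator list also holds Foxn1 and Tnfrsf11a, which served here as markers of TEC and of mTEChi as well. Between adult WT mTEChi and mTEClo, 3 genes of the regulator list were called higher by edgeR, where 7.54% of all genes were. They were Stat5a, a direct activator of caseins (log2 fold change 1.46), and the 2 marker genes Foxn1, the master factor of TEC (1.88), and Tnfrsf11a, the receptor RANK (1.17). Ghr, the growth hormone receptor (-2.21), and Nfib, a nuclear factor I gene (-2.16), were called lower, as were 4.13% of all genes. The prolactin receptor Prlr (0.14 ± 0.46, SE) and Elf5 (4.05 ± 1.53, edgeR adjusted p = 0.107) were not called. Of the 19 milk genes 4 were called higher, beside the same 7.54%, and none lower: Glycam1, a mucin-like milk protein (7.07), Trf, transferrin (2.81), Lpo, lactoperoxidase (2.2003), and Mfge8, a protein of milk fat globules (1.21). The median log2 fold change was 0.20 over the 16 regulators and 1.21 over the 19 milk genes, beside 0.298 over all genes tested. No gene of either list was called in the other 5 comparisons over pools.

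Among milk products, Lalba (alpha-lactalbumin) at 0.24 CPM and Wap (whey acidic protein) at 2.19 CPM were far below Csn2 in adult WT mTEChi. In Aire-KO mTEChi they stood at 0.02 and 0.66 CPM. The regulator Elf5 stood at 12.025 CPM in adult WT and 1.58 CPM in Aire-KO mTEChi. The milk list as a whole was not low, but its sum was not particular to mTEChi. It also holds Krt8, which served here as a marker of all TEC. In adult WT mTEChi 17 of its 19 genes were over 1 CPM, and its sum ran from 1917.8 to 2165.9 CPM over the pools, beside 682.2 to 844.3 CPM for the 5 caseins. The milk sum ran from 1650.04 to 1914.1 CPM over the adult WT mTEClo pools. It stood at 2671.04 CPM in adult cTEC and 2693.68 CPM in newborn cTEC. Summed over 7 mammary markers, the adult WT mTEChi pools ran from 91.6 to 124.2 CPM, the adult WT mTEClo pools from 68.05 to 102.99 CPM, and none of the 7 was at 0 in adult WT mTEChi, where Prlr, at 50.9 CPM, made up the largest share of the sum.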

How the data were processed

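Single TECs sorted into plates were profiled by RamDA-seq. To make the deposited counts, the authors trimmed reads (fastp 0.20.0 among the tools named in the submitters' processing notes), mapped them with STAR 2.7.3a to mm10 (GRCm38), removed poorly mapped and duplicate reads (SAMtools 1.9, Picard 2.21.1) and counted whole reads per Ensembl gene without strand (HTSeq 0.11.2), so unspliced RNA within annotated exons is counted and antisense genes are not separated. Cells passed the authors' quality filter above 200000 reads and 8000 detected genes, which left 620 adult WT mTEChi, 338 adult Aire-KO mTEChi, 171 newborn mTEChi, 357 adult WT mTEClo, 154 adult Aire-KO mTEClo, 124 newborn mTEClo, 77 adult cTEC and 139 newborn cTEC. Of these 1980 cells, 168 were sequenced in 2 runs, and how these were combined is not given in the sources used here. A second deposited table of length- and TMM-scaled values, a score, was not used.

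Counts were summed per mouse pool, and CPM are counts per 1000000 reads over all genes. GENCODE M21 gave names, positions and exon lengths, with entries for 48263 genes. The main test was edgeR 4.0.16's quasi-likelihood test (R 4.3.3) on 11 mTEC pools in 6 groups (5 residual degrees of freedom), with TMM scaling, filterByExpr and Benjamini-Hochberg adjustment, 2-sided, and calls at a fold of 2 or more with an adjusted p below 0.05. It was tested on simulated data. Single values used exact permutation tests (SciPy 1.17.1). Correlations took genes with 5 or more reads in at least 5 cells. Alternatives were DESeq2 1.42.0, limma 3.58.1, DESeq2 size factors, no filter, plates as units, an age and sex block, cells thinned to 200000 reads, and leaving out each pool. Where nothing says that samples of a group come from separate animals, p-values measure the spread between pools only.

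The members and gene lists were chosen with earlier results of these data known. Genes named were the caseins, Aire, detected neighbours within 500 kb (the 6 most often detected), the 3 genes most like each casein, and list genes that were called. Prlr, Elf5, Lalba and Wap were named beside these for their known roles.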

Additional observations from a re-analysis of the deposited data

Results flagged for a closer look

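One value stood apart by Dixon's test within its group. At least 1 Csn2 read was found in 91.7% of the cells of the 5-week pool of adult WT mTEChi, while the other 3 pools lay between 99.1 and 100%. That pool has 12 cells, so a single cell without a Csn2 read makes the difference. It was 1 of 18 groups of values tested, and chance alone sets apart about 1 in 20.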

How the results depend on the processing

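Of 59 recounts of called caseins, 49 stayed within 1.5 times the reported count. In every comparison but adult WT mTEChi against mTEClo the reported count was 0, and a recount of 0 was taken as unchanged. No gene at all was called there by edgeR over pools, so this tally says little about robustness. For Aire-KO against WT mTEChi the count of 0 became 1 (Csn1s2a) in DESeq2 and over plates. For adult WT mTEChi against mTEClo the count of 2 became 1 with limma on per-cell means and with pool age and sex blocked, and ran from 1 to 3 when each pool was left out. For newborn against adult mTEClo it became 1 in DESeq2 and 2 over plates. Directions reversed for values near 0 or resting on few reads. The log2 fold change of Csn2 in Aire-KO mTEChi was -0.0050 with DESeq2 size factors, -0.0051 in DESeq2 and -0.40 in limma, and that of Csn3 was 0.021 in limma. In Aire-KO mTEClo, leaving out each WT mTEClo pool gave -2.49 to 0.28 for Csn1s2a (0.28 without pool 2), -1.88 to 3.60 for Csn1s2b and -2.32 to 3.62 for Csn3 (both highest without pool 1). The interaction was -0.10 for Csn1s1 in limma, -5.46 to 0.30 for Csn1s2b over the left-out pools (0.30 without WT mTEChi pool 1, 0.029 without mTEClo pool 2), and -4.48 to 1.51 for Csn3 (-4.48 without mTEClo pool 1). Csn1s1 in mTEChi against mTEClo was -0.31 with the block. In newborn mTEChi, Csn2 was -0.0186 with DESeq2 size factors and in DESeq2, -0.0020 with no filter, and -0.059 to 0.045 over the left-out pools (below 0 without pools 1 and 3), while Csn1s2a was -0.28 to 0.50 (-0.28 without pool 2) and Csn3 0.13 in limma. In newborn mTEClo, Csn1s1 was 0.0076 in limma and -0.29 to 0.35 over the left-out pools (0.35 without pool 3), Csn2 0.51 in limma, 0.0116 over plates and -0.37 to 0.84 (0.84 without pool 2), and Csn1s2b -1.80 to 3.69 (3.69 without pool 1). The difference between cells above and below the median Aire level became -0.29 points without Csn2. The cause was not tested.

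Over all genes, mTEChi against mTEClo called 7.54% higher and 4.13% lower over pools, 25.8% and 9.21% over plates, 17.9% and 7.00% in DESeq2, 4.95% and 2.71% in limma, 3.37% and 1.97% with the block, and 2.79 to 10.3% higher and 1.83 to 4.02% lower when each pool was left out. Aire-KO mTEChi called 0% over pools, 1.23% higher and 4.44% lower over plates, 0.130% and 1.79% in DESeq2, and 0.025% and 0.0025% in limma. The other comparisons called 0% over pools, but without adult WT mTEClo pool 1 newborn mTEClo called 0.635% and 0.702% and Aire-KO mTEClo 0.0051% and 0%. Aire-KO mTEClo called 0.203% and 0.0621% over plates and 0.218% and 0.463% in DESeq2. The interaction called 0.143% and 0.203% over plates and 0.168% and 0.300% in DESeq2. Newborn mTEChi called 0.913% and 0.873% over plates and 0.030% and 0.0575% in DESeq2, and newborn mTEClo 7.08% and 8.92% over plates, 2.06% and 2.53% in DESeq2, and 2.73% and 0.335% in limma. DESeq2 size factors moved the median of all genes in mTEChi against mTEClo from 0.298 to 0.398. By replicate number, no paired analysis was possible because the labels number no mice; the age and sex block is the one matched fit that was made, and newborn mTEChi and mTEClo, which share plates, were not compared. The Aire-KO comparisons rest on 1 KO pool, and the WT pool of matching age and sex has 12 cells, which limits what they can detect.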
